A study of Mus musculus with 6 samples.

Results

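CXC chemokines are small signalling proteins that guide leukocyte movement, and 6 of the 16108 genes with deposited expression values were examined here, chosen by symbol: Cxcl2, Cxcl10, Cxcl11, Cxcl14, Cxcl16 and Pf4. All 6 passed the filter on low values, which 11664 genes passed. The cells were RAW264.7, a macrophage-like line derived from a tumour induced in mice by Abelson leukaemia virus. They attached to acoustic devices overnight. In 3 acoustics-on libraries the device was then driven at 5 kHz, with 18 V from peak to peak, for 48 h, and in 3 acoustics-off libraries the cells stayed on an undriven device for the same time. A control group in petri dishes was not analysed here. All libraries come from 1 established line, and the labels do not say whether they came from separate cultures. The p-values therefore rest on the spread among these 6 libraries alone, which may be technical.

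Chemokines of this family carry a pair of cysteines separated by a single residue near the start of the mature protein, and they act on G protein-coupled receptors on leukocytes. Members with a Glu-Leu-Arg motif just before these cysteines, such as CXCL2, attract neutrophils through CXCR2. CXCL10 and CXCL11 lack the motif, are induced by interferons and attract activated T cells through CXCR3. CXCL14 is a member made constitutively by many tissues, CXCL16 is made as a transmembrane protein that is shed by proteases and binds CXCR6, and PF4 (CXCL4) is stored in platelet granules and also made by monocytes and macrophages.

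The codons around the cysteine pair were read from the GENCODE M21 coding sequences (GRCm38) to check the family label and to show how the members differ. Capitals mark the codons of the cysteine pair, and the 3 codons before it are where the Glu-Leu-Arg motif would lie. All 6 genes had such a pair in frame, and the motif was encoded in Cxcl2 only among these 6.
Cxcl2: gaactgcgcTGTcaaTGCctgaagacc
Cxcl10: acggtccgcTGCaacTGCatccatatc
Cxcl11: caggggcgcTGTcttTGCatcggcccc
Cxcl14: gggtccaagTGTaagTGTtcccggaag
Cxcl16: gctggaagtTGTtctTGTgatcgtacc
Pf4: gatcttagcTGTgtgTGTgtgaagacc

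On driven devices, Cxcl11 rose, while the members Cxcl2 and Cxcl10 were higher and Cxcl14 was lower in every acoustics-on library than in any acoustics-off library without passing the test over all genes. Mean FPKM (fragments scaled by transcript length and library depth) was 18.5 times as high for Cxcl11, 5.13 times as high for Cxcl10 and 2.63 times as high for Cxcl2, and it was 0.593 times as high for Cxcl14. Cxcl16 and Pf4 differed least. Only Cxcl11 passed in limma, a linear model with moderated variances fitted on log2(FPKM + 1) over all genes (Benjamini-Hochberg adjusted p under 0.05), and 1.5% of all genes tested were called higher and 0.574% lower, or 2.07% in either direction. At an unadjusted p under 0.05 in limma were 4 of the 6 members and 19.7% of all genes tested. Groups did not overlap for 5 of the 6 members, 3 above and 2 below, against 34.8% of all genes tested (17.1% above and 17.7% below). The authors' deposited table, which rests on counts, called Cxcl2, Cxcl10 and Cxcl11 higher and Cxcl14 lower at the same threshold, where it called 7.56% of all genes with an adjusted p (5.08% higher and 2.49% lower).

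**Figure D1:**
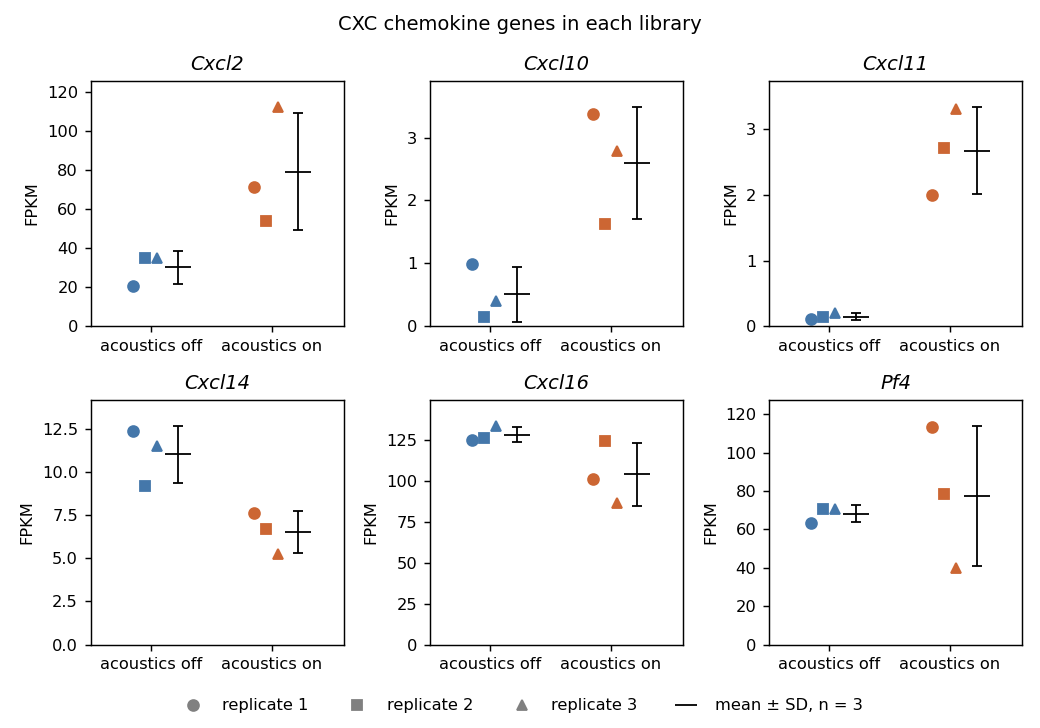
FPKM (y axes, linear from 0) of each CXC chemokine gene in the 3 acoustics-off and 3 acoustics-on libraries, with the marker shape giving the replicate number and the bars the mean ± SD. The acoustics-on libraries lie above the acoustics-off libraries for Cxcl2, Cxcl10 and Cxcl11 and below them for Cxcl14 and Cxcl16, and the groups overlap for Pf4.

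Cxcl2 encodes a neutrophil attractant that macrophages release early in inflammation. It lies on chromosome 5 (90903871 to 90905938, plus strand, GRCm38). Its level was 20.5, 34.9 and 34.7 FPKM in acoustics-off replicates 1, 2 and 3, and 71.2, 54.1 and 112.1 FPKM in acoustics-on replicates 1, 2 and 3. The lowest acoustics-on library was above the highest acoustics-off library, and the acoustics-on libraries were spread widely, at 79.1 ± 29.9 FPKM against 30.0 ± 8.27 (SD, n = 3). The log2 difference of Cxcl2 on the log2(FPKM + 1) scale was 1.34 (SE 0.31, 95% interval 0.61 to 2.08, limma adjusted p = 0.089). In the authors' deposited table the log2 fold change of Cxcl2 was 1.4 (SE 0.33) with an adjusted p of 0.001. Cxcl2 shared 161 of its 2121 distinct words of 31 bases (7.59%) with other genes, most with its close copy Cxcl3, so reads from the copies can be split between them.

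Cxcl10 and Cxcl11, the interferon-induced attractants of activated T cells, are neighbours on the minus strand of chromosome 5, at 92346638 to 92348889 and 92359544 to 92365485, with 10655 bases between them. GENCODE lists Cxcl11 as a polymorphic pseudogene, since the reference strain carries a disrupted copy. Cxcl11 was at 0.10, 0.14 and 0.19 FPKM in acoustics-off replicates 1, 2 and 3 and at 2.00, 2.72 and 3.32 FPKM in acoustics-on replicates 1, 2 and 3. The groups were far apart relative to their spread, with means of 0.145 ± 0.046 and 2.68 ± 0.66 FPKM (SD, n = 3). Cxcl11 rose by a log2 difference of 1.67 on the log2(FPKM + 1) scale (SE 0.16, 95% interval 1.3 to 2.04, limma adjusted p = 0.0063). That scale understates the change of a gene this low, and the log2 fold change was 4.19 (SE 0.43, adjusted p = 1.85e-19) in the authors' deposited table. Cxcl11 passed the filter through the acoustics-on libraries alone. With no filter it still passed (limma adjusted p = 0.0149). Without acoustics-off replicate 2 it did not (log2 difference 1.67, limma adjusted p = 0.055). Over all genes that setting gave 19 calls, against 242 with all libraries.

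Cxcl10 was at 0.99, 0.14 and 0.39 FPKM in acoustics-off replicates 1, 2 and 3 and at 3.37, 1.62 and 2.78 FPKM in acoustics-on replicates 1, 2 and 3. The groups did not overlap, and the acoustics-off libraries differed among themselves more than for Cxcl11, at 0.505 ± 0.434 FPKM against 2.59 ± 0.891 on driven devices (SD, n = 3). The log2 difference of Cxcl10 was 1.26 (SE 0.26, 95% interval 0.64 to 1.89, limma adjusted p = 0.0697). The authors' deposited table gave a log2 fold change of 2.46 (SE 0.64, adjusted p = 0.0039). If the same gene length was used in every library, the FPKM values of Cxcl10 stand for about 4.12 to 29.4 normalised reads per acoustics-off library and 48.3 to 100 per acoustics-on library. For Cxcl11 the same reckoning gave 6.35 to 12 and 124 to 206 normalised reads, so both genes rest on few reads on undriven devices. Cxcl10 too reached the filter through the acoustics-on libraries, and with no filter its limma adjusted p was 0.109. Without acoustics-on replicate 2, Cxcl10 passed (limma adjusted p = 0.0499). The order of the pair was not fixed: Cxcl11 was above Cxcl10 in acoustics-off replicate 2 (by a ratio of 1.002) and in acoustics-on replicates 2 and 3, and below it in the other libraries. The gene Art3 spans both genes on the opposite strand, at 0.115 FPKM on undriven devices and 0.278 on driven devices. Reads from any transcribed stretch they share could be counted for either if strand was not used in counting. Whether their exons overlap was not examined.

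Cxcl14, a homeostatic member of the family, lies on chromosome 13 (56288643 to 56296551, minus strand). It was at 12.4, 9.17 and 11.5 FPKM in acoustics-off replicates 1, 2 and 3 and at 7.65, 6.71 and 5.25 FPKM in acoustics-on replicates 1, 2 and 3. All acoustics-on libraries were below all acoustics-off libraries, with means of 6.54 ± 1.21 and 11.02 ± 1.66 FPKM (SD, n = 3). The log2 difference of Cxcl14 was -0.68 (SE 0.18, 95% interval -1.09 to -0.26, limma adjusted p = 0.115). In the authors' deposited table Cxcl14 had a log2 fold change of -0.75 (SE 0.23, adjusted p = 0.0182). It passed in limma without acoustics-on replicate 1 (log2 difference -0.78, adjusted p = 0.0346) and with the length and GC trend of each library divided out (-0.82, adjusted p = 0.0264). In that corrected analysis 1 member was called higher, Cxcl11, and 1 lower, Cxcl14, where 3.31% of all genes tested were higher and 2.72% lower, or 6.03% in all.

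Cxcl16, the transmembrane member, was the most abundant of the 6 on undriven devices, above 93.5% of the genes tested. It lies on chromosome 11 (70453983 to 70459984, minus strand), and its 5' end overlaps Zmynd15, a gene on the opposite strand that averaged 9.71 FPKM on undriven devices and 6.47 on driven devices. Cxcl16 was at 124.9, 126.5 and 133.8 FPKM in acoustics-off replicates 1, 2 and 3, and at 101.2, 124.5 and 86.5 FPKM in acoustics-on replicates 1, 2 and 3. The acoustics-on libraries were all lower, but replicate 2 lay close under the lowest acoustics-off library, and the means were 128.4 ± 4.75 and 104.0 ± 19.2 FPKM (SD, n = 3). The log2 difference of Cxcl16 was -0.32 (SE 0.16, 95% interval -0.69 to 0.06, limma adjusted p = 0.307). The authors' deposited table gave -0.3 (SE 0.19, adjusted p = 0.357).

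Pf4 encodes platelet factor 4 and lies on chromosome 5 (90772435 to 90773383, plus strand), 130488 bases from Cxcl2. It was at 63.1, 70.8 and 70.6 FPKM in acoustics-off replicates 1, 2 and 3 and at 113.3, 78.7 and 40.1 FPKM in acoustics-on replicates 1, 2 and 3. Acoustics-on replicates 1 and 2 were above and replicate 3 below the whole acoustics-off range, and the SD was 4.42 FPKM on undriven devices and 36.6 on driven devices around means of 68.2 and 77.3. The log2 difference of Pf4 was 0.06 (SE 0.34, 95% interval -0.75 to 0.88, limma adjusted p = 0.926). The authors' deposited table gave 0.18 (SE 0.35, adjusted p = 0.816). The transcript of Pf4 is 588 bases long, at percentile 0.9 of transcript length, and the libraries differed in a trend with length. Across 10462 protein-coding genes, the rank correlation of transcript length with the difference from the acoustics-off mean was -0.59, -0.47 and 0.03 in acoustics-on replicates 1, 2 and 3, and 0.26, -0.32 and 0.04 in acoustics-off replicates 1, 2 and 3. Within each group, Pf4 was higher the lower this correlation was. Across both groups, whose baselines differed, that order did not hold, since acoustics-on replicate 3 was lowest for Pf4 with a correlation of 0.03. The fitted trend in length and GC at Pf4 was 0.56, 0.03 and -0.33 (log2) in acoustics-on replicates 1, 2 and 3. With the length and GC trend divided out, Pf4 was at 76.6, 77.0 and 50.5 FPKM in these libraries and at 73.0, 76.3 and 77.6 FPKM in acoustics-off replicates 1, 2 and 3. The corrected log2 difference of Pf4 was -0.18 (limma adjusted p = 0.532), opposite in sign to the value as deposited.

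**Figure D2:**
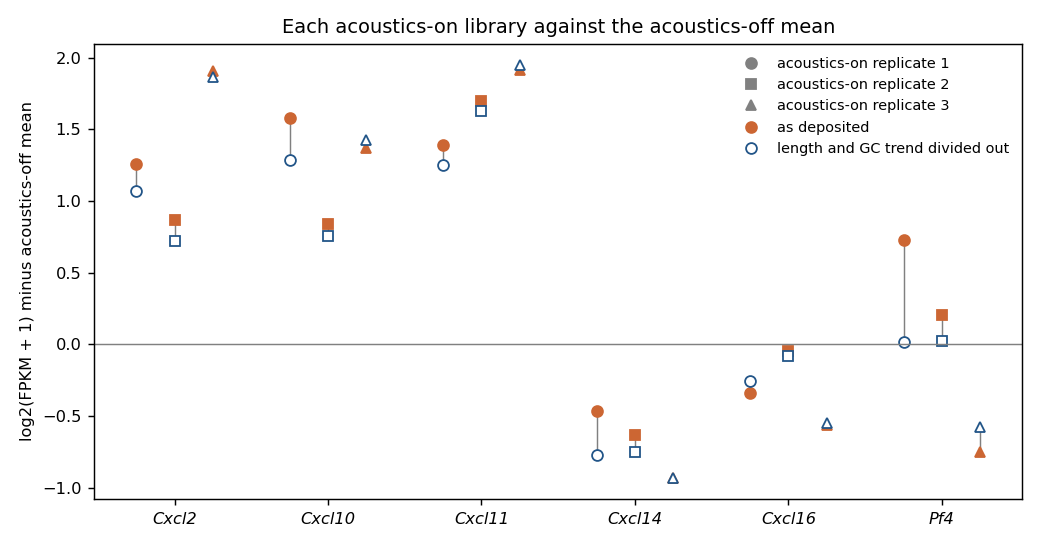
Difference of each acoustics-on library from the acoustics-off mean on log2(FPKM + 1) (y axis) for each gene, as deposited (filled) and with the length and GC trend of each library divided out (open), joined by a line. Pf4 moves from 0.73 to 0.02 in acoustics-on replicate 1, while the 3 libraries stay above 0 for Cxcl2, Cxcl10 and Cxcl11 and below 0 for Cxcl14 and Cxcl16.

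**Figure D3:**
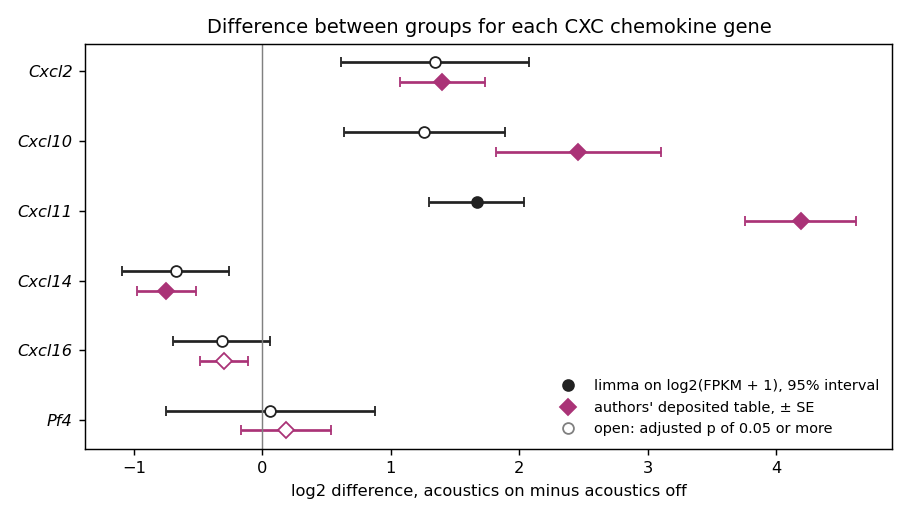
Log2 difference between groups (x axis) for each gene from limma on log2(FPKM + 1) with its 95% interval (circles) and from the authors' deposited table with its SE (diamonds), filled where the adjusted p is under 0.05. Cxcl11 is filled in both, Cxcl2, Cxcl10 and Cxcl14 in the authors' table only, and the values lie furthest apart for the low genes Cxcl10 and Cxcl11.

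FPKM is scaled by length, so levels can be set side by side between genes, but the length trend of each library was not divided out here. On undriven devices the mean levels ran from Cxcl16 (128.4 FPKM) through Pf4 (68.2), Cxcl2 (30.0) and Cxcl14 (11.02) to Cxcl10 (0.505) and Cxcl11 (0.145), and the ranges of these first 4 genes did not overlap one another. Cxcl10 and Cxcl11 overlapped. On driven devices the ranges of Cxcl16, Pf4 and Cxcl2 overlapped, and Cxcl2 was the highest of the 6 in acoustics-on replicate 3. Cxcl2 made up 9.23%, 14.5% and 13.8% of the summed FPKM of the 6 genes in acoustics-off replicates 1, 2 and 3, and 23.8%, 20.2% and 44.9% in acoustics-on replicates 1, 2 and 3. Cxcl16 made up 52.3% to 56.3% on undriven devices and 33.9% to 46.4% on driven devices. The summed FPKM of the 6 genes was 221.9 to 251.2 on undriven devices and 250.0 to 298.6 on driven devices, and those ranges overlapped.

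The 250 bases before the RefSeq start site (GRCm38.p6) are shown for Cxcl2 and Cxcl10, whose levels were higher in all acoustics-on libraries, and for Cxcl14, whose levels were lower, in the direction of transcription. The windows are chr5:90903649-90903898 on the plus strand for Cxcl2, chr5:92348890-92349139 on the minus strand for Cxcl10 and chr13:56296552-56296801 on the minus strand for Cxcl14. Capitals mark matches, on either strand, to 5 motifs: the interferon-stimulated response element (ISRE, GAAA then any 2 bases then GAAA), an NF-kB site (GGG then any 3 bases then TTCC), the STAT site GAS (TTC then any 3 bases then GAA), the AP-1 site (TGANTCA) and the TATA box (TATAAA).
Cxcl2: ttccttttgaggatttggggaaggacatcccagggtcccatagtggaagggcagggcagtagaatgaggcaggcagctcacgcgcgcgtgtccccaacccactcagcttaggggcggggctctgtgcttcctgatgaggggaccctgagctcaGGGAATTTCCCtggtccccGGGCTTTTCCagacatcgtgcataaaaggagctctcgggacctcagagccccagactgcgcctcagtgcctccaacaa
Cxcl10: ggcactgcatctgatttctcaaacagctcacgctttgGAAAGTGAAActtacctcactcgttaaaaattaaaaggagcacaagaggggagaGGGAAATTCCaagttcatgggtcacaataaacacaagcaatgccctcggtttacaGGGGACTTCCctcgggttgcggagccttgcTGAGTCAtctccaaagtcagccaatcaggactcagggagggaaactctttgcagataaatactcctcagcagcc
Cxcl14: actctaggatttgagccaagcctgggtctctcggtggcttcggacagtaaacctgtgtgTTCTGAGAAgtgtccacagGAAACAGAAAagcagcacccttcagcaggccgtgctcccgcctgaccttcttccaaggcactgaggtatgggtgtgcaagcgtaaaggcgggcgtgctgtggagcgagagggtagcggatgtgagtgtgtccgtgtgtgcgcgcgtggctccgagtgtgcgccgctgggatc

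Cxcl2 had NF-kB matches at 97 to 88 and 78 to 69 bases before the start, and a match on the other strand at 96 to 87 that overlaps the first. Cxcl10 had an ISRE match at 213 to 204, NF-kB matches at 159 to 150 and 104 to 95 and an AP-1 match at 74 to 68 bases before the start. Cxcl14 had a GAS match at 191 to 183 and an ISRE match at 172 to 163. Pf4 had none of these letters in its window, and no member with an entry held the TATA letters. Of 32851 promoter windows of this length, 2.98% held the ISRE letters, 4.65% the NF-kB letters, 7.02% the GAS letters, 6.75% the AP-1 letters and 12.4% the TATA letters. A match describes letters only: an ISRE match was found both in Cxcl10, which was higher on driven devices, and in Cxcl14, which was lower.

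Of 5 CXC receptor genes with values, 2 passed the filter. Limma called 0 of these 2, against 2.07% of all genes tested, and 0 had an unadjusted p under 0.05, against 19.7%. Cxcr3, the receptor for CXCL10 and CXCL11, was below the filter at 0.11, 0.03 and 0.20 FPKM on undriven devices and 0.92, 0.25 and 0.48 FPKM on driven devices. Its acoustics-on libraries were all above the acoustics-off libraries, and the authors' deposited table called Cxcr3 higher (log2 fold change 2.26, adjusted p = 0.0489). Cxcr4, the receptor for CXCL12, was at 21.7, 19.4 and 22.7 FPKM on undriven devices and 8.56, 30.6 and 13.2 FPKM on driven devices, so the groups overlapped (limma adjusted p = 0.516). Cxcr5, the B cell follicle homing receptor, averaged 0.595 ± 0.042 and 0.807 ± 0.239 FPKM (SD, n = 3, limma adjusted p = 0.466). Cxcr1 and the scavenging receptor gene Ackr3 were below 0.17 FPKM in every library, and Cxcr2, Cxcr6 and Ackr1 were not analysed here. Of other CXC ligand genes, Cxcl3, a neutrophil attractant close to Cxcl2, was listed at 0, 0 and 0.03 FPKM on undriven devices and at 0.03, 2.25 and 1.63 FPKM in acoustics-on replicates 1, 2 and 3. Acoustics-on replicate 1 was at the acoustics-off level, and the authors' deposited table called Cxcl3 higher (log2 fold change 6.9, SE 1.65, adjusted p = 0.00106). Cxcl12 was below 0.17 FPKM throughout.

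Interferons induce Cxcl10 and Cxcl11 through receptors, JAK kinases and STAT and IRF transcription factors. Among 16 tested genes of this pathway 2 rose and 0 fell, where 1.5% of all genes tested rose and 0.574% fell. At an unadjusted p under 0.05 were 6 of the 16, against 19.7% of all genes tested, 3 with higher and 3 with lower levels. The median over the 16 was a log2 difference of -0.08 against -0.03 over all genes tested. Irf7, a transcription factor that amplifies type I interferon production, rose from 13.9 ± 1.52 to 69.6 ± 9.69 FPKM (SD, n = 3, log2 difference 2.24, limma adjusted p = 0.00196). Usp18, a protease that removes ISG15 and damps interferon receptor signalling, rose from 8.71 ± 0.413 to 20.0 ± 2.17 FPKM (log2 difference 1.11, limma adjusted p = 0.0105), but not without any 1 acoustics-off library (adjusted p up to 0.0987). Leaving out acoustics-off replicate 1, 2 or 3 gave 32, 19 and 29 calls over all genes, against 242 with all libraries. Ifnb1, which encodes interferon beta, reached 2.72 and 2.57 FPKM in acoustics-on replicates 2 and 3 and was listed at 0 in the other 4 libraries. Of those with an unadjusted p under 0.05, the 3 with lower levels were Ifnar1, Ifngr1 and Irf8, each without overlap. The receptor genes were Ifnar1, at 51.0 ± 0.76 and 32.4 ± 8.77 FPKM (limma adjusted p = 0.157), and Ifngr1, at 70.3 ± 1.28 and 43.3 ± 12.2 FPKM (limma adjusted p = 0.126). The transcription factor gene Irf8 was at 115.7 ± 2.24 and 77.0 ± 14.4 FPKM (limma adjusted p = 0.114). Ifnar2 too was lower without overlap, at 171.2 ± 9.11 and 144.1 ± 18.1 FPKM (limma adjusted p = 0.344). Of all genes tested, 17.7% lay below without overlap. The authors' deposited table called Ifngr1 (adjusted p = 0.041) and Irf8 (adjusted p = 0.026) lower and did not call Ifnar1 (adjusted p = 0.0682). Irf9, the partner of the STAT proteins in type I interferon signalling, averaged 14.4 ± 0.774 and 19.2 ± 2.5 FPKM (limma adjusted p = 0.203).

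NF-kB drives Cxcl2 transcription in macrophages. Of 15 tested genes of that pathway 0 rose and 0 fell in limma, where 1.5% of all genes tested rose and 0.574% fell. At an unadjusted p under 0.05 were 2 of the 15, against 19.7% of all genes tested. The median log2 difference over the 15 was -0.1. Nfkbia, the inhibitor that NF-kB itself induces, averaged 95.3 ± 3.83 FPKM without the drive and 165.8 ± 45.4 on driven devices, with no overlap (SD, n = 3, limma adjusted p = 0.122). It was called higher in the authors' deposited table (log2 fold change 0.8, adjusted p = 0.0125), and no other gene of this list was called there. The subunit gene Rela averaged 33.6 ± 2.36 and 31.3 ± 2.8 FPKM.

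Many chemokine mRNAs are destroyed through AU-rich elements in their 3' UTR, which the tristetraprolin family binds. The 3' UTR of Cxcl2 held 11 copies of the pentamer ATTTA in 737 bases, or 14.9 per kilobase, a density above that of 99.8% of genes. It held 4 copies of the nonamer TTATTTATT, which 7.1% of 13107 genes with a 3' UTR hold, and the other 5 members held 0. Cxcl10 had 2 pentamers, Cxcl16 had 2, Cxcl11 and Pf4 had 1 each, and Cxcl14 had 0. In the short 3' UTR of Pf4 (126 bases) 1 copy made 7.94 per kilobase, a density above that of 98.3% of genes. The densities of Cxcl10, Cxcl16 and Cxcl11 were above those of 76.5%, 52.3% and 39.3% of genes. Among 8 tested regulators of chemokine mRNA decay 1 fell and 0 rose, where 0.574% of all genes tested fell, and the median log2 difference was -0.45. Zfp36l1, a member of the tristetraprolin family, fell from 71.3 ± 3.55 to 16.5 ± 7.76 FPKM (SD, n = 3, log2 difference -2.15, limma adjusted p = 0.0269), but not without any 1 acoustics-off library or without acoustics-on replicate 3 (adjusted p up to 0.142). Those settings gave 19 to 78 calls over all genes, against 242 with all libraries. Zfp36, which encodes tristetraprolin itself, was at 84.6, 95.4 and 117.0 FPKM on undriven devices and 51.7, 50.2 and 64.9 FPKM on driven devices (limma adjusted p = 0.0695). Zfp36l2 averaged 110.0 ± 6.4 and 55.0 ± 13.6 FPKM (limma adjusted p = 0.0509). The groups did not overlap for any of these 3 family members, nor for the regulator genes Hnrnpd and Khsrp, where 17.7% of all genes tested lay below without overlap. All of these had an unadjusted p under 0.05 in limma and the other regulators did not, against 19.7% of all genes tested. The 8 regulators all had log2 differences below 0. Zfp36l1 (adjusted p = 1.41e-07), Zfp36l2 (0.000332), Zfp36 (0.0016) and Hnrnpd (0.00513) were called lower in the authors' deposited table. Khsrp was not called there (adjusted p = 0.24).

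CXCL16 is released from the cell surface by the proteases ADAM10 and ADAM17. Limma called 0 of 4 tested genes linked to this shedding (Adam10, Adam17, Rhbdf1 and Rhbdf2), against 2.07% of all genes tested. At an unadjusted p under 0.05 were 0 of the 4, against 19.7% of all genes tested. Adam10 averaged 45.9 ± 2.12 FPKM on undriven devices and 38.9 ± 14.6 on driven devices (limma adjusted p = 0.531), and Adam17 77.8 ± 0.273 and 64.1 ± 21.0 FPKM (limma adjusted p = 0.453). Proteoglycans hold chemokines, PF4 among them, in granules and at the cell surface. Limma called 0 of 8 tested genes linked to such proteoglycans (Srgn, Sdc1, Sdc3, Sdc4, Cd44, Ext1, Ext2 and Ndst1), against 2.07% of all genes tested. Of these, Ext1, Ext2 and Ndst1 encode enzymes that build heparan sulfate chains. The median log2 difference over the 8 was -0.25. At an unadjusted p under 0.05 were 4 of the 8, against 19.7% of all genes tested, 2 with higher and 2 with lower levels and none with overlap. The higher were Srgn, the granule proteoglycan serglycin, at 222.5 ± 5.5 and 381.4 ± 103.8 FPKM (limma adjusted p = 0.128), and the syndecan gene Sdc1, at 18.4 ± 0.185 and 27.2 ± 2.21 FPKM (limma adjusted p = 0.0728). The lower were the syndecan genes Sdc3, at 174.3 ± 5.33 and 108.0 ± 37.9 FPKM (limma adjusted p = 0.199), and Sdc4, at 82.6 ± 4.19 and 56.2 ± 7.24 FPKM (limma adjusted p = 0.0984). Srgn (adjusted p = 0.0136) and Sdc1 (adjusted p = 0.00214) were called higher in the authors' deposited table. Sdc4 was called lower there (adjusted p = 0.0146), and Sdc3 was not called (adjusted p = 0.112).

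**Figure D4:**
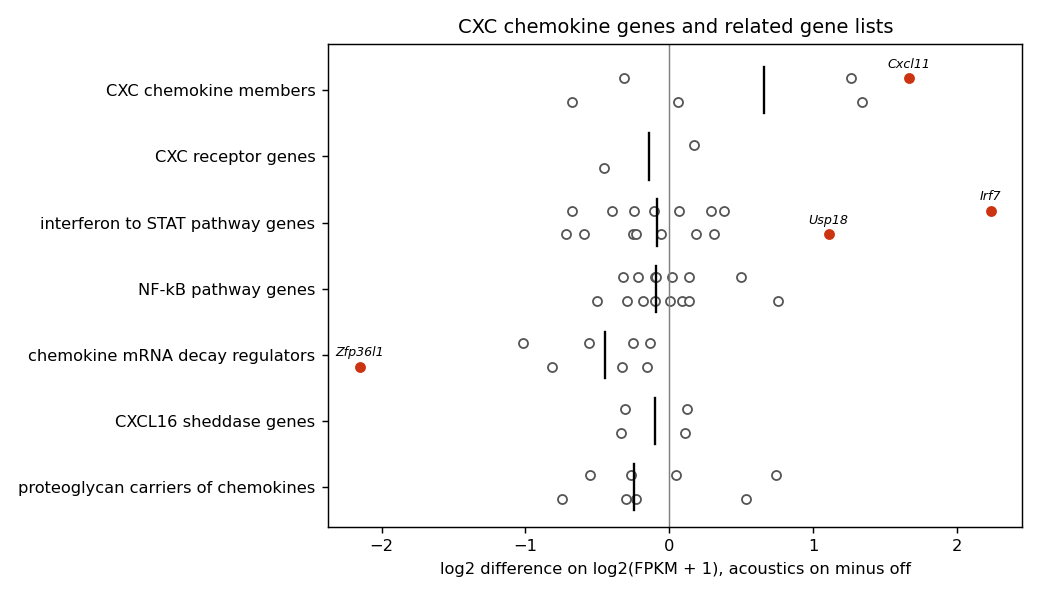
Log2 difference between groups (x axis) of each tested gene in the CXC chemokine list and in 6 related lists, filled red and named where the limma adjusted p is under 0.05, with a vertical bar at each list's median. Cxcl11, Irf7 and Usp18 lie to the right, Zfp36l1 to the left, and the other genes of these lists are open.

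The genes whose profiles lay closest to each member over the 6 libraries were found among 10802 others whose mean log2(FPKM + 1) reached 1, by the root mean square difference of values centred on each gene's mean. For Cxcl2 they were Plk2 (0.22), Pgm5 (0.25) and Myc (0.27), all lowest of the acoustics-on libraries in replicate 2, as Cxcl2 was. For Cxcl10 they were Phlda1 (0.14), Gpr84 (0.23) and Ttc9 (0.24). For Cxcl11 they were Layn (0.06), Serpinb9 (0.06) and the sulfiredoxin gene Srxn1 (0.12), a target of the oxidative stress regulator NRF2. Cxcl14 lay closest to Abcc3 (0.07), Gm38414 (0.09) and Gm6169 (0.10). Cxcl16 lay closest to Lyz2 (0.03), the lysozyme gene of macrophages, to the lysosomal membrane gene Lamp1 (0.04) and to Arl5c (0.04). Pf4 lay closest to Fam162a (0.03), Lst1 (0.08) and H2afj (0.09). These distances rest on 6 libraries that share depth and length trends, and no member was among the closest genes of another.

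**Figure D5:**
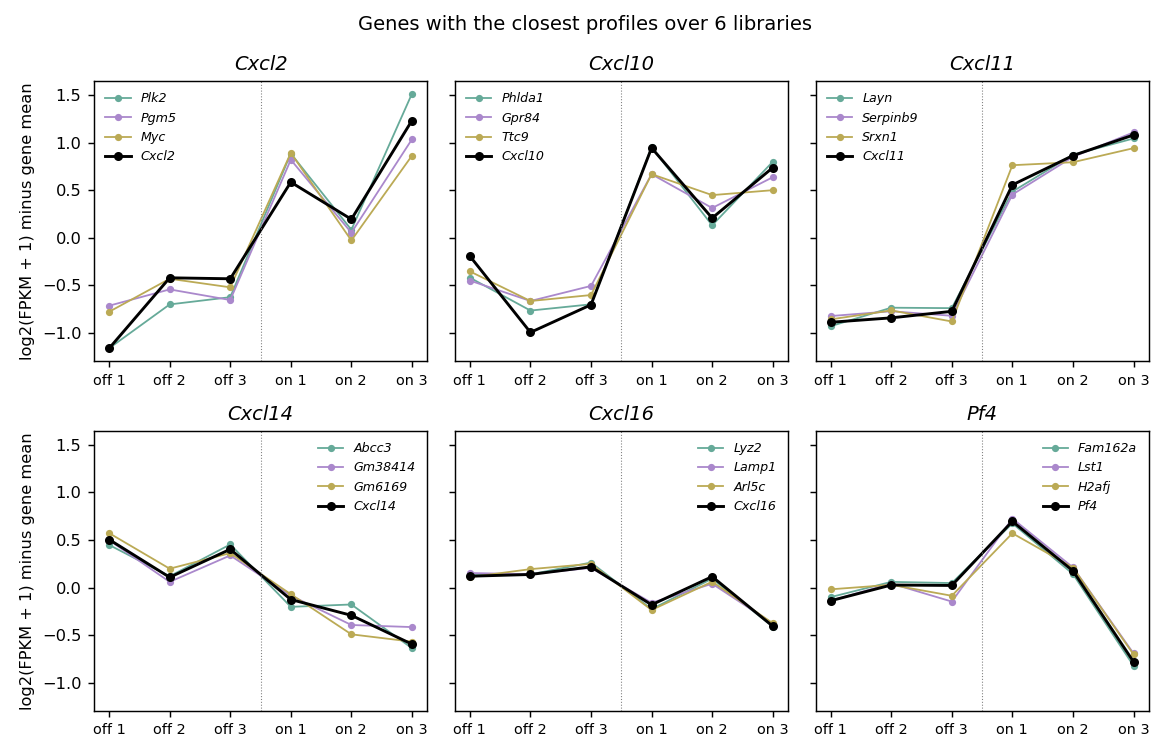
Log2(FPKM + 1) minus the gene's own mean (y axis) in each library (x axis) for each CXC chemokine gene (black) and its 3 closest genes (colours), with lines that only join the points of a gene. Cxcl10, Cxcl11 and Cxcl2 step up between the groups, while Pf4 spreads to both sides of 0 among the acoustics-on libraries (113.3 to 40.1 FPKM).

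All 8 macrophage markers were expressed, with summed levels of 28170 to 30400 FPKM on undriven devices and 19980 to 26880 on driven devices. Limma called 0 of 8, against 2.07% of all genes tested, and 2 of 8 had an unadjusted p under 0.05, against 19.7%. The lysozyme gene Lyz2 made up most of these sums, at 24700 ± 1214 and 19380 ± 3494 FPKM. Of the 8, 6 had log2 differences below 0 and 2 above 0, and their median was -0.32. Csf1r, the receptor for the macrophage growth factor, averaged 809.3 ± 45.9 and 457.4 ± 109.4 FPKM (SD, n = 3, limma adjusted p = 0.0957), while Cd14 averaged 1037 ± 27.7 and 1236 ± 404.2 FPKM (limma adjusted p = 0.637) and Spi1 253.5 ± 8.09 and 267.4 ± 46.9 FPKM (limma adjusted p = 0.827). Only Csf1r of these markers was called in the authors' deposited table, as lower (adjusted p = 0.00443). In bulk samples, fewer cells of a type and less RNA per cell cannot be told apart. Of the platelet and megakaryocyte markers, which bear on Pf4, 2 of 8 were analysed here, Itga2b and Gp1ba, with a summed level of 0.758 to 1.15 FPKM on undriven devices and 0.634 to 0.907 on driven devices. Of neutrophil markers 2 of 6 were analysed, S100a8 and Csf3r, with summed levels of 3.34 to 3.91 and 2.62 to 10.0 FPKM. S100a8 averaged 0.150 ± 0.051 FPKM on undriven devices and 5.04 ± 3.05 on driven devices (limma adjusted p = 0.0531), and Csf3r lay the other way without overlap, at 3.40 ± 0.299 and 2.02 ± 0.984 FPKM (limma adjusted p = 0.239). S100a8 reached the filter through the acoustics-on libraries alone, being at 0.18, 0.18 and 0.09 FPKM in acoustics-off replicates 1, 2 and 3. S100a8 was called higher in the authors' deposited table (adjusted p = 3.02e-06), and Csf3r was not called there (adjusted p = 0.211). Their part in the results was not tested. Summed T cell, B cell, fibroblast, epithelial and endothelial markers reached at most 7.8 FPKM in any library. Limma called 0 of their tested genes, against 2.07% of all genes tested. At an unadjusted p under 0.05 was 1 endothelial gene, Vwf, against 19.7% of all genes tested. Vwf averaged 0.955 ± 0.300 and 4.17 ± 3.25 FPKM (limma adjusted p = 0.207) and was called higher in the authors' deposited table (adjusted p = 0.00201). The endothelial genes Pecam1 and Kdr were below the filter. Read depth per library is not given in the sources used here. Over all genes 72.3% of the 242 calls were higher on driven devices, and 54.9% of 703 with the length and GC trend divided out.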

How the data were processed

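RNA was sequenced from 3 acoustics-off and 3 acoustics-on libraries of RAW264.7 cells, grouped by sample title. Per the labels' protocols, libraries were made after ribosomal RNA depletion, while the molecule field of the labels says polyA RNA. The submitters' processing notes name DESeq2 1.38.2, Salmon 1.4.0, STAR 2.7.11 and Trim Galore 0.6.8, and the build GRCm38. Their settings, annotation and strand use were not given in the sources used. FPKM per gene and library was deposited by the authors. Their deposited comparison lists the mean normalised count of each gene (a signal), log2 fold changes with SE, a Wald score and p-values, of which 1586 adjusted ones are missing and were left so.

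From the FPKM values, log2(FPKM + 1) was tested with limma 3.58.1 in R 4.3.3 (trended, robust variance prior, no replicate term) over the 11664 genes that reached 0.5 FPKM in 3 or more libraries, with Benjamini-Hochberg adjustment at 0.05, and was tested on simulated data. Approximate normalised reads are FPKM times the authors' deposited mean normalised count over the mean FPKM. Lengths, GC content, coordinates and codons came from GENCODE M21, matched by symbol for 15943 genes (the longest protein-coding transcript), and promoters from RefSeq for 4 of the 6 members; Cxcl11 and Cxcl16 had no entry. Alternatives were other pseudocounts (0.1, 0.5), filters, scalings and priors, a replicate term, each library left out, and the length and GC trend of each library (loess, span 0.5, over 9972 protein-coding genes averaging 1 FPKM or more) divided out.

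The members, gene lists and motifs were chosen with earlier results of these data known. Genes named were the members, list genes that passed (at most 6 a list), every listed receptor and other ligand with values, and the 3 genes closest in profile to each member. Other list and marker genes, and genes near the members, were named after their values were seen.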

Additional observations from a re-analysis of the deposited data

How the results depend on the processing

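Over 18 alternatives the direction of Cxcl2, Cxcl10, Cxcl11, Cxcl14 and Cxcl16 was the same as in the main analysis. Cxcl11 passed in 17 of 18 (limma adjusted p from 2.94e-05 to 0.055), Cxcl14 in 4, Cxcl10 in 3, and Cxcl2, Cxcl16 and Pf4 in 0. With a pseudocount of 0.1 the log2 differences of the low genes Cxcl11 and Cxcl10 were 3.49 and 2.36. Pf4 was reversed to -0.05 with quantile normalization, to -0.18 with the length and GC trend divided out, to -0.18 with that correction and the replicate block, and to -0.27 with that correction and acoustics-on replicate 1 left out. It ranged from -0.27 to 0.47 with a library left out, below 0 without acoustics-on replicate 1 or 2.

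With a library left out, 0 to 2 members were called higher (0 without acoustics-off replicate 2, and 2 without acoustics-on replicate 2, the second being Cxcl10) and 0 to 1 lower (1, Cxcl14, without acoustics-on replicate 1). Over all genes the calls then ranged from 14 to 554 higher and 5 to 359 lower. With library weights 2 members were called higher, the second being Cxcl10, and 1 lower, Cxcl14, with 1098 and 784 genes over all. With the length and GC trend divided out 1 member was lower, Cxcl14, and 386 genes were higher and 317 lower. With acoustics-on replicate 1 left out as well, 1 member was lower, with 770 and 625 genes. With no filter 116 genes were higher and 34 lower, and with quantile normalization 111 were lower.

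Same-numbered libraries did not deviate together (correlations of -0.07, -0.02 and -0.004 for replicates 1, 2 and 3). With 3 libraries a group, these values cannot show whether same-numbered libraries share more than a number, and the labels do not say. With the replicate block 2 members were called higher, the second being Cxcl10 (limma adjusted p = 0.0218), and with the replicate block and the length and GC trend divided out 86 genes were higher and 30 lower. The cause of these changes was not tested. The low read numbers of Cxcl10 and Cxcl11 with acoustics off limit the precision of their fold changes.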

Other observations

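Genes near the members were examined after their values were seen. Within 250000 bases of Cxcl10, 7 tested genes included its neighbour Cxcl11, which was called higher, and 6 others. Limma called 0 of these 6, where it called 2.07% of all genes tested. Scarb2 and Uso1 (2 of the 6) had an unadjusted p under 0.05, against 19.7% of all genes tested. Among these, Naaa, Sdad1, Nup54, Scarb2 and Uso1, which encode an amidase, a nucleolar protein, a nuclear pore protein, a lysosomal membrane protein and a vesicle tether, had log2 differences of -0.32, -0.11, -0.07, -0.39 and 0.40. Around Cxcl2 the gene Mthfd2l, an enzyme of mitochondrial folate metabolism 25179 bases away, averaged 4.72 FPKM on undriven devices and 5.89 on driven devices (limma adjusted p = 0.349). Around Cxcl16, 24 neighbours were tested and 0 were called, against 2.07% of all genes tested. The tested neighbour of Cxcl14, Tifab, a gene of the TIFA inhibitor family 109758 bases away, averaged 13.6 and 5.45 FPKM (log2 difference -1.29, limma adjusted p = 0.108).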
